A study of Mus musculus with 96 samples.

Results

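The genes described here are the potassium channel genes of the mouse cerebellum, taken as every gene of the deposited count table whose symbol starts with Kcn, with pseudogenes and antisense genes left out. They number 94 of the 39179 genes listed, and 4 further Kcn symbols were left out as antisense or opposite-strand genes. The study sequenced messenger RNA in cerebella of male and female C57BL/6 mice that carried an allelic series of CAG repeat lengths in the huntingtin gene Htt, where long repeats lead to Huntington disease. At each of 2 ages, 6 and 10 months, there were 6 groups of 8 libraries, with 4 of each sex in every group. The groups were wild types housed with Q20 mice, wild types housed with Q50 mice, and mice heterozygous for a knock-in allele of nominally 20, 50, 92 or 140 CAG (Q20, Q50, Q92 and Q140), which shared cages only with their own genotype or with the wild types named for them. The allele is present in every cell of these heterozygotes, beside 1 wild-type copy. Wild types were analysed from Q20 and Q50 cages only, so repeat length and cage cannot be told apart in Q92 and Q140, and age cannot be told apart from the numbering of the libraries. Nothing in the labels ties each library to a separate animal, so the p-values measure the spread between these libraries, which may in part be technical.

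Potassium channels let potassium ions leave or enter the cell and so set the resting potential and the shape and rate of action potentials. Voltage-gated (Kv) alpha subunits open on depolarisation, auxiliary subunits change their gating and transport, inward rectifiers and two-pore-domain channels carry resting currents, and the calcium-activated BK and SK channels follow spikes. In the cerebellum, fast Kv channels allow granule neurons, interneurons and Purkinje cells to fire at high rates, glial inward rectifiers take up potassium, and the choroid plexus that lies beside the tissue has channels of its own.

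Library totals lay between 29957797 and 39477325 estimated counts. The tissue label held in the data: Gabra6 and Cbln3, of granule neurons, and Pcp2, Calb1 and Car8, of Purkinje cells, each had a mean between 229 and 455 FPKM (fragments scaled by transcript length and library size, the deposited unit that allows genes to be compared). At 6 months 11 of the 48 libraries lay more than 3 median absolute deviations out on the first principal component of the libraries, which held 23.6% of the variance, and at 10 months 1 library did (Q92 female replicate 2). The 11 were Q20 female replicates 2, 3 and 4, Q20 male replicate 4, Q50 female replicate 3, Q50 male replicate 2, Q140 female replicate 4, 2 wild types housed with Q20 mice and 2 housed with Q50 mice. No Q92 library of 6 months was among them. Values without these libraries, called the far libraries, are given beside the results of members below that change a call when they are left out. In tissue RNA such as this, fewer cells of a type and less RNA per cell cannot be told apart.

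Promoters are shown for 4 members on which the results below turn: Kcnk13 and Kcnab1, which were called in Q140 mice at 6 months, and Kcnj13 and Kcne2, which moved together over the libraries. Each line holds the 250 bases before an annotated RefSeq start (GRCm38.p6), written 5′ to 3′ on the strand of the gene, with matches to any of 5 short motifs in capitals. The motifs, sought on both strands, were TAATCC (the core bound by OTX factors), GGAAGT (an ETS core), CACGTG (an E-box), GGGCGG (a GC box) and the TATA box with the letters TATAAA, and none of them overlaps another in these lines.
Kcnk13, chr12:99964249-99964498, plus strand: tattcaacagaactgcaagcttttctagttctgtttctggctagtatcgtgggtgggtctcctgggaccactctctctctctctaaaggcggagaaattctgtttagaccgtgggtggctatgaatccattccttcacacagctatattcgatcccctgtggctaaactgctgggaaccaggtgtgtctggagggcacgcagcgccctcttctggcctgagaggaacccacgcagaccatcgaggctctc
Kcnab1, chr3:65108764-65109013, plus strand: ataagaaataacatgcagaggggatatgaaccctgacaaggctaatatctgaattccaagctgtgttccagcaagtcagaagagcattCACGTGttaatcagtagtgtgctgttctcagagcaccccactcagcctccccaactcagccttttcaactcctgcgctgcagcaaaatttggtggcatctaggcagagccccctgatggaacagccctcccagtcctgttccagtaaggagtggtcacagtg
Kcnj13, chr1:87394730-87394979, minus strand: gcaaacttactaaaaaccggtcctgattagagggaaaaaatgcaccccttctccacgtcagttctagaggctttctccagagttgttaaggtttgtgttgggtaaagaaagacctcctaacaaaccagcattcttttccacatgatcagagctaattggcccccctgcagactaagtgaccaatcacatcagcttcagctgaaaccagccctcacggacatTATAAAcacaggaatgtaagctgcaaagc
Kcne2, chr16:92292139-92292388, plus strand: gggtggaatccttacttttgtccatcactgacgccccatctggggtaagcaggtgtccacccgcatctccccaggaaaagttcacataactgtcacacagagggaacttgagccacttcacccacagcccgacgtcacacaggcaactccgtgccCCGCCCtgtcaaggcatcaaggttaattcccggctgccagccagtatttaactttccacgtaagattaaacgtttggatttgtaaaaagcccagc
Kcnab1 has 3 starts in the reference table and Kcne2 has 2, and the one nearest the GENCODE gene start was printed. None of the motifs lies in the Kcnk13 window. Kcnab1 has an E-box 162 bases before the start, a motif found in 6.02% of all 32851 promoter windows and in 6.38% of the 94 windows of potassium channel genes, which belong to 69 members. Kcnj13 has a TATA box 29 bases before its start, against 12.4% of all windows with one somewhere in the 250 bases and 3.19% of the channel windows. Kcne2 has a GC box 95 bases before its start, and 32.7% of all windows and 44.7% of the channel windows hold one. The OTX core lies in neither Kcnj13 nor Kcne2, and 6.25% of all windows hold it. A match is a description of the letters, not a site of binding.

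Of the 94 members, 31 had a mean of at least 10 FPKM over the 96 libraries, 50 at least 1 FPKM and 44 less than 1 FPKM. The 8 highest members held 52.9% of the summed FPKM of all members, which was 1433. The voltage-gated Kv3 subunit Kcnc1, which supports fast repolarisation, led with 170.3 FPKM (74.7 to 197 over 96 libraries). Kcnt1, a sodium-activated channel, had 145 ± 18.7 FPKM (SD), and Kcnk1, a two-pore-domain channel, had 73.5 ± 6.12 FPKM. Kcnd2, a Kv4 subunit of granule neurons, had 59.7 ± 6.68 FPKM, and Kcnip4, a calcium-binding partner of Kv4 channels, had 55.0 ± 4.66 FPKM. Kcnab1, a cytoplasmic beta subunit that speeds inactivation of Kv1 channels, had 57.2 ± 4.79 FPKM, and Kcnj10, the inward rectifier of astrocytes, had 52.7 ± 8.90 FPKM. Kcnd2, Kcnab1, Kcnip4 and Kcnj10 did not differ beyond their SD as neighbours in this order, whereas Kcnc1 lay above Kcnt1, Kcnt1 above Kcnk1 and Kcnk1 above Kcnd2 by more than the SD.

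By subfamily, the 4 Kv3 genes held 23.3% of the summed FPKM of the members, the 12 auxiliary subunits 16.8%, the 15 inward rectifiers 12.7%, the 3 genes of the Kcnt and Kcnu group 10.1% and the 14 two-pore-domain genes 9.48%. At the low end, Kcnk16 was listed at 0 in every library, and 12 members passed the count filter of no fit. The low members included Kcnb2 (0.385 FPKM), a Kv2 subunit, and Kcnh5 (0.144 FPKM), an EAG-type subunit, on which results below rest. Counting alone therefore limits their precision.

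**Figure D1:**
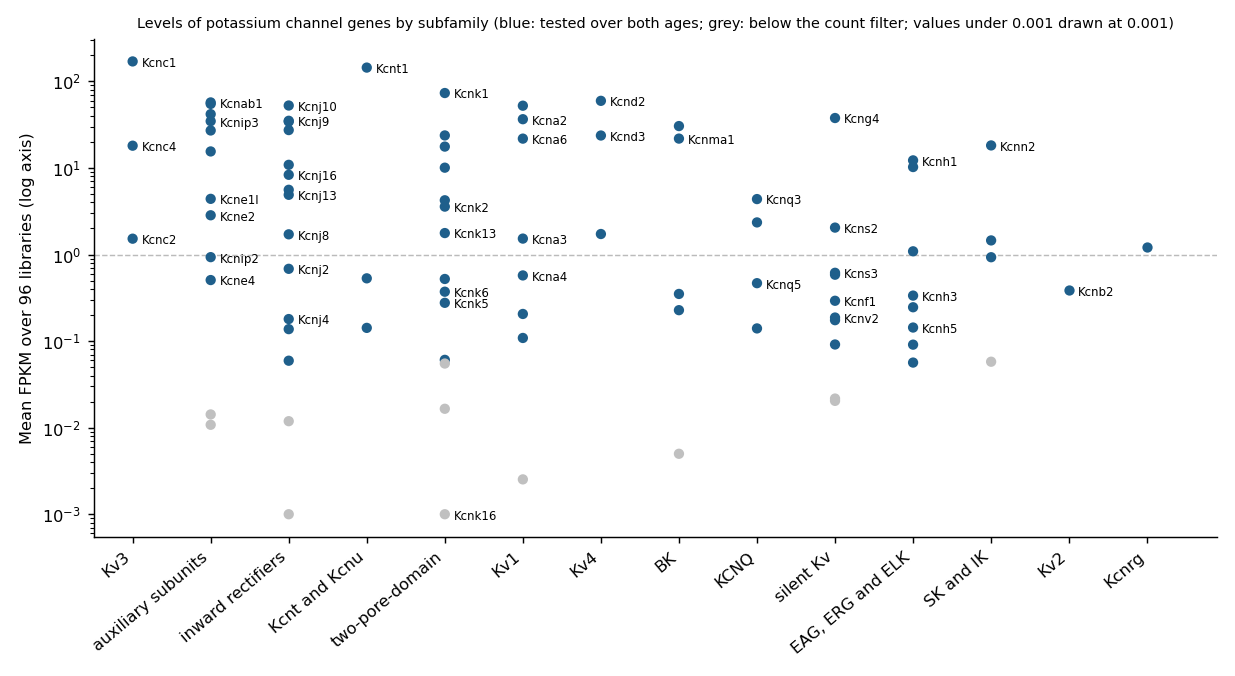
Mean FPKM of 91 of the 94 potassium channel genes over 96 libraries on a log axis, 1 point per gene, by subfamily in order of summed level, with a dashed line at 1 FPKM. Kcnc1 and Kcnt1 stand highest, and the grey genes were below the count filter of the fits over both ages; values under 0.001 FPKM are drawn at 0.001.

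Spread within groups of 4 libraries of the same genotype, cage, age and sex differed widely between members. Over the 62 members with a mean of at least 1 CPM (counts scaled to library size), the median coefficient of variation within groups was 15.2%, against 10.5% over the 14388 genes at that level. It was largest for Kcne2, a beta subunit, with 117%, and for Kcnj13, an inward rectifier of epithelia, with 101%. Kcnc2 (59.7%), a Kv3 subunit, Kcnf1 (58.6%), a silent Kv subunit, and Kcnip2 (54.5%) followed. The steadiest members were Kcnip3 (5.85%), Kcnab1 (6.11%), Kcnn2 (6.53%), Kcnc4 (6.92%) and Kcnip4 (6.96%), of which Kcnn2 is a calcium-activated SK channel of Purkinje cells. Without strand in the counting, reads of overlapping genes cannot be told apart: 28 members share exon bases with another annotated gene. The largest shares among the named members are 49.1% for Kcnj13, which lies opposite Gigyf2, and 39.6% for Kcna6.

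The first comparison asked how these genes differed between the longest and the shortest knock-in repeat. At 6 months, 1 of the 81 tested members rose in Q140 and 1 fell, where 0.164% of all 17120 tested genes were called, 0.0643% higher and 0.0993% lower. Kcnk13, a two-pore-domain channel known for the resting current of microglia, was the member that fell. Its lowest, median and highest values were 2.96, 3.76 and 5.33 CPM in the 8 Q140 libraries, against 4.82, 5.63 and 7.80 CPM in the 8 Q20 libraries. The ranges overlapped slightly, and all 8 Q140 libraries lay below the Q20 mean. The log2 difference was -0.58 ± 0.11 (SE; q = 0.00399).

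Kcnab1 was the member that rose. Its lowest, median and highest values were 172, 182 and 212 CPM in Q140, against 136, 158 and 178 CPM in Q20, with a log2 difference of 0.23 ± 0.05 (q = 0.0146). All 8 Q140 libraries lay above the Q20 mean, although the ranges overlapped. The call of Kcnk13 was kept without any 1 of the 16 libraries, with a log2 difference of -0.67 and q of 0.0205 when the far libraries were left out. The call of Kcnab1 was lost without Q140 female replicate 3 (q = 0.0712) or Q20 female replicate 4 (q = 0.0725), without the far libraries (log2 difference 0.19, q = 0.155), and on log2(FPKM + 0.1) (0.19, q = 0.0632) or log2(FPKM + 1) (0.19, q = 0.0671).

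The other members among the 8 smallest p at 6 months were not called. Kcne2 and Kcnj13 had the largest differences, -3.60 ± 1.08 (q = 0.114) and -2.35 ± 0.71 (q = 0.117), and are described with the choroid plexus below. Kcnh5, an EAG-type subunit, had a log2 difference of 1.60 ± 0.52 (q = 0.134) at a level of 0.0256 to 0.547 CPM in Q20. Kcnh1, its close relative, had 69.0, 95.2 and 102 CPM in Q140 (lowest, median, highest) and 49.7, 72.1 and 91.2 CPM in Q20, a difference of 0.38 ± 0.13 (q = 0.152). Kcnma1, the pore of the BK channel, had 27.9, 110.1 and 129 CPM in Q140 and 15.5, 51.9 and 95.6 CPM in Q20, a difference of 0.91 ± 0.34 (q = 0.161). Kcnn2 had a difference of -0.15 ± 0.05 (q = 0.153).

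Kcnh1 and Kcnma1 were lowest in 1 Q140 library, female replicate 4, which is among the far libraries. Without it the difference of Kcnma1 was 1.05 (q = 0.0506) and that of Kcnh1 0.42 (q = 0.0510), whereas without all 11 far libraries they were 0.50 (q = 0.329) and 0.20 (q = 0.391). The median log2 difference of the 81 members was 0.03, beside -0.01 over all tested genes, and 45 members were positive and 36 negative.

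At 10 months, 1 of the 79 tested members rose in Q140 beside Q20 and 2 fell, where 1.99% of all 17026 tested genes were called, 1.06% higher and 0.934% lower. Kcnn2 fell. Its lowest, median and highest values were 27.1, 31.4 and 32.6 CPM in Q140 and 32.8, 35.1 and 36.1 CPM in Q20, so that the groups did not overlap. The difference was small, -0.18 ± 0.04 on the log2 scale (q = 0.00925), and the call was kept without any 1 of the 16 libraries. It was lost when the L label of the library names entered the fit as a term (-0.18, q = 0.0702). Exon bases of Kcnn2 are shared with genes on the other strand to 8.13%.

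Kcnk13 fell at this age too, to 3.43, 4.86 and 5.46 CPM in Q140, against 5.71, 6.55 and 6.97 CPM in Q20. The groups did not overlap, and the log2 difference was -0.45 ± 0.12 (q = 0.0344). The call stood near the threshold: it was lost without any 1 of 8 libraries (Q140 female replicates 1 and 2, Q140 male replicate 3, Q20 female replicates 2, 3 and 4, and Q20 male replicates 3 and 4), with q between 0.0509 and 0.0802, with no count filter, on log2(FPKM + 0.1) (-0.43, q = 0.0535), and with the L label as a term (-0.45, q = 0.166).

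Kcnb2, a Kv2 subunit of delayed rectifier current, rose at 10 months. It had 1.95, 2.69 and 2.97 CPM in Q140 (lowest, median, highest) and 0.905, 1.35 and 3.09 CPM in Q20, where 1 male library was the highest of both groups. The log2 difference was 0.71 ± 0.18 (q = 0.0193), and the call was lost without Q20 male replicate 3 (q = 0.0522) or Q20 male replicate 4 (q = 0.0567). With the L label as a term it was kept (0.93, q = 0.0179). At 6 months its difference had been 0.68 ± 0.27 (q = 0.171).

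Of the uncalled members with the next smallest p at 10 months, Kcna3, a Kv1 subunit, had a difference of 0.45 ± 0.14 (q = 0.0880). It had 3.35, 3.89 and 4.26 CPM in Q140 and 1.46, 3.07 and 3.75 CPM in Q20. Kcnq5, a KCNQ subunit, had 0.49 ± 0.18 (q = 0.171), and Kcnd3, a Kv4 subunit, had 0.12 ± 0.05 (q = 0.183). Kcnab1 had 180.4, 188 and 201 CPM in Q140 and 163, 174 and 193 CPM in Q20, a difference of 0.11 ± 0.04 (q = 0.209). Kcnj8, the inward rectifier of mural cells, had -0.28 ± 0.11 (q = 0.234). The median log2 difference of the 79 members was -0.00 at 10 months, as over all genes.

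**Figure D2:**
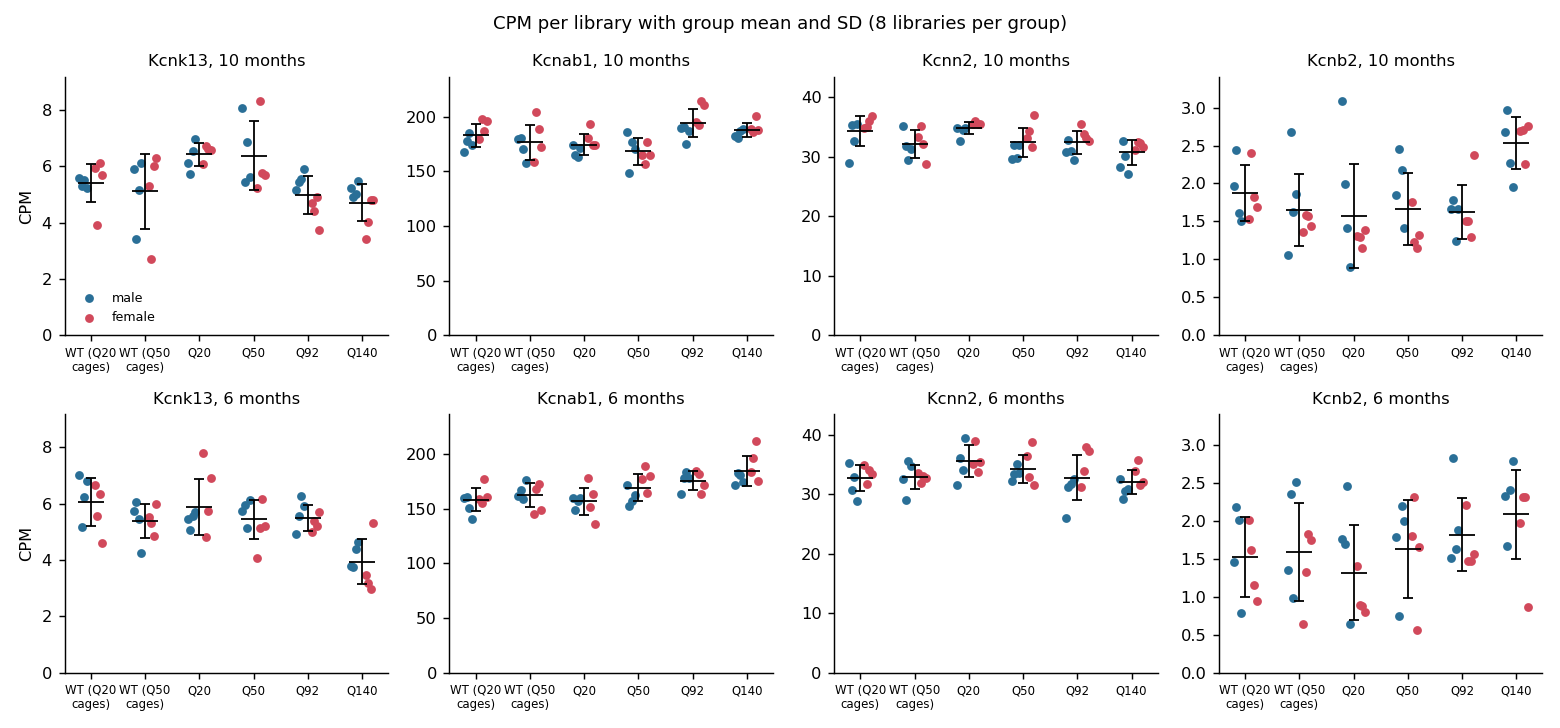
CPM of Kcnk13, Kcnab1, Kcnn2 and Kcnb2 in each library by genotype (columns of points, male left of female), with the mean and SD of the 8 libraries of a group, at 10 months above and 6 months below. Kcnk13 lies lower in Q140 than in Q20 at both ages and Kcnab1 climbs with repeat length at 6 months, while 1 Q20 library of 10 months lies at the top for Kcnb2.

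Whether the Q140 and Q20 difference changed between the ages was tested directly. Of 82 tested members none was called, where 0% of all 17384 genes were called. An unadjusted p under 0.05 was found in 5 members (6.10%), beside 5.16% of all genes, and DESeq2 also called none. The smallest q among the members was 0.791. A call at 1 age only is therefore not shown to differ from the other age.

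The trend over 20, 50, 92 and 140 CAG was fitted over the 32 knock-in libraries of an age. At 6 months Kcnab1 rose with repeat length and Kcnk13 fell, 2 of 79 tested members, where 0.406% of all genes were called. Kcnab1 averaged 157 ± 12.2 CPM in the Q20 group, 169 ± 12.3 CPM in the Q50 group, 176 ± 8.68 CPM in the Q92 group and 184 ± 13.4 CPM in the Q140 group (SD, n = 8 each). The slope was 0.18 ± 0.04 log2 units per 100 CAG (q = 0.0269). Kcnk13 had means of 5.88 ± 0.989, 5.44 ± 0.698, 5.49 ± 0.456 and 3.93 ± 0.790 CPM in the same order, so only Q140 stood below the others, and a slope of -0.44 ± 0.09 (q = 0.0376).

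Both calls were sensitive to single libraries at 6 months. Kcnab1 lost its call without any 1 of 5 of the 32 libraries (Q140 female 2 and 3, Q140 male 2 and 3, Q20 female 2; q between 0.0503 and 0.0798), and Kcnk13 without any 1 of 9 (Q140 female 1, 2 and 3, Q140 male 1, 2, 3 and 4, Q20 female 3 and 4; q between 0.0571 and 0.104). No member was called without the far libraries or with the L label as a term. Without Q140 female replicate 4 alone, 19 members were called, but so were 4048 genes of the whole table. Without Q92 female replicate 2 there were 4 members, a count given here without that of all genes. At 10 months Kcnk13 fell by 0.43 ± 0.08 log2 units per 100 CAG (q = 0.00301) and Kcnn2 fell by 0.13 ± 0.03 (q = 0.0124). Kcnb2 rose by 0.56 ± 0.15 (q = 0.0452). These are 3 of 79 tested members, where 1.16% of all genes were called.

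The means of Kcnk13 at 10 months were 6.41 ± 0.409 CPM for Q20, 6.37 ± 1.23 CPM for Q50, 4.97 ± 0.689 CPM for Q92 and 4.71 ± 0.663 CPM for Q140. Its call was kept without any 1 of the 32 libraries and with the L label as a term (q = 0.0174). The call of Kcnn2 was kept without any 1 library but lost with the L label (-0.13, q = 0.0670), and that of Kcnb2 (q = 0.193 with the L label) was lost without any 1 of 21 of them (14 of Q140 and Q20, 5 of Q50 and 2 of Q92, with q between 0.0503 and 0.101). Without Q92 female replicate 2, 6 members were called, among them Kcnk13, Kcnn2 and Kcnb2, with Kcnab1 and Kcnd3 newly called. The share of all genes called in that fit is not given here.

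The 16 wild types of an age gave a second set of levels for Q140, which shares the Q140 libraries with the comparison above. At 6 months 2 of 81 members were called, where 0.234% of all genes were: Kcnk13 fell by 0.54 ± 0.09 on the log2 scale (q = 0.00163), and Kcnab1 rose by 0.20 ± 0.04 (q = 0.0126), a call lost without Q140 female replicate 3 (q = 0.0751) and with the L label as a term (0.19, q = 0.0512). At 10 months none of 79 was called, where 0.452% of all genes were. An unadjusted p under 0.05 was found in 10 members (12.7%), beside 6.26% of all genes. DESeq2 called none, and Kcnb2 was called without 1 wild type (male replicate 2 housed with Q50 mice). The difference of Kcnk13 at 10 months was -0.16 ± 0.11 (q = 0.971) and that of Kcnn2 -0.11 ± 0.04 (q = 0.241). Kcnk13 averaged 5.11 ± 1.33 CPM in wild types housed with Q50 mice and 5.41 ± 0.673 CPM in those housed with Q20 mice at 10 months, below the Q20 mean.

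No member was called in the remaining comparisons within an age. For Q92 against Q20, 0.0117% of all genes were called at 6 months and 0.2% at 10 months. There 16 of 81 members (19.8%) had an unadjusted p under 0.05 at 6 months, beside 24.7% of all genes. At 10 months 18 of 79 (22.8%) had one, beside 16.1%. DESeq2 called none at 6 months. At 10 months DESeq2 called Kcnab1 and Kcnh3, and the edgeR difference of Kcnab1 was 0.16 ± 0.04 (q = 0.0774). The share of all genes that DESeq2 called there is not given here. For Q50 against its wild types, 0.0117% and 0.0529% of all genes were called at 6 and 10 months. An unadjusted p under 0.05 was found in 3 and 11 members (3.70% and 13.9%), beside 1.03% and 4.8% of all genes. For Q20 against its wild types 0.0117% of all genes were called at both ages. There 6 and 9 members (7.41% and 11.4%) had such a p, beside 6.43% and 8.82% of all genes. Wild types housed with Q50 mice against those housed with Q20 mice carry no knock-in allele, and 0.0935% and 0.2% of all genes were called. Such a p was found in 16 and 14 members (19.8% and 17.7%), beside 7.98% and 10.8% of all genes. DESeq2 called no member in these 3 comparisons. The shares of members and of all genes were not tested against each other.

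Other cell types moved with some of these members. Of 14 oligodendrocyte markers, 4 of 14 fell in Q140 against Q20 at 6 months and 9 of 14 at 10 months, with median log2 differences of -0.36 and -0.44. Their summed level was 3990 to 6158 CPM in Q140 and 4706 to 10077 CPM in Q20 at 6 months, and 3743 to 5205 CPM in Q140 and 5498 to 7942 CPM in Q20 at 10 months. None of the 10 microglial markers was called at either age, and their summed level was 153 to 169 CPM in Q140 and 141 to 187 CPM in Q20 at 6 months. No marker of either list was at 0 in every library.

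Over the 48 libraries of 6 months, Kcnk13 correlated with the summed oligodendrocyte markers with Pearson's r = 0.79 and Spearman's rho = 0.77, and over those of 10 months with r = 0.90 and rho = 0.86. Permutation tests gave the smallest p they can, 1e-05, in each case (adjusted over 14 relations, 2e-05). Without the 2 libraries farthest from the median r was 0.78 and 0.86, and over deviations from the group means it was 0.77 and 0.89. With the microglial sum the same gene had r = 0.42 and rho = 0.45 at 6 months (permutation p = 0.00374 and 0.00136; adjusted 0.00499 and 0.00190) and r = 0.02 and rho = 0.11 at 10 months (permutation p = 0.900 and 0.461; adjusted 0.900 and 0.496). The part of oligodendrocyte RNA in the Kcnk13 result was not tested. Sums of other cell types were not set beside Kcnk13, so the relation is not shown to be particular to oligodendrocytes.

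Kcnab1 followed the summed Purkinje cell markers, with r = 0.76 and rho = 0.81 at 6 months and r = 0.73 and rho = 0.72 at 10 months (permutation p = 1e-05 each, adjusted 2e-05). These r were 0.79 and 0.69 without the 2 farthest libraries, and 0.76 and 0.63 over deviations from group means. The sum was 7338 to 11070 CPM in Q140 and 5783 to 9271 CPM in Q20 at 6 months, although none of the 10 Purkinje markers was called, and its part in the Kcnab1 result was not tested. No other marker sum was set beside Kcnab1, so the relation is not shown to be particular to Purkinje cells. Whether the marker sums move with or against each other was not tested.

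**Figure D3:**
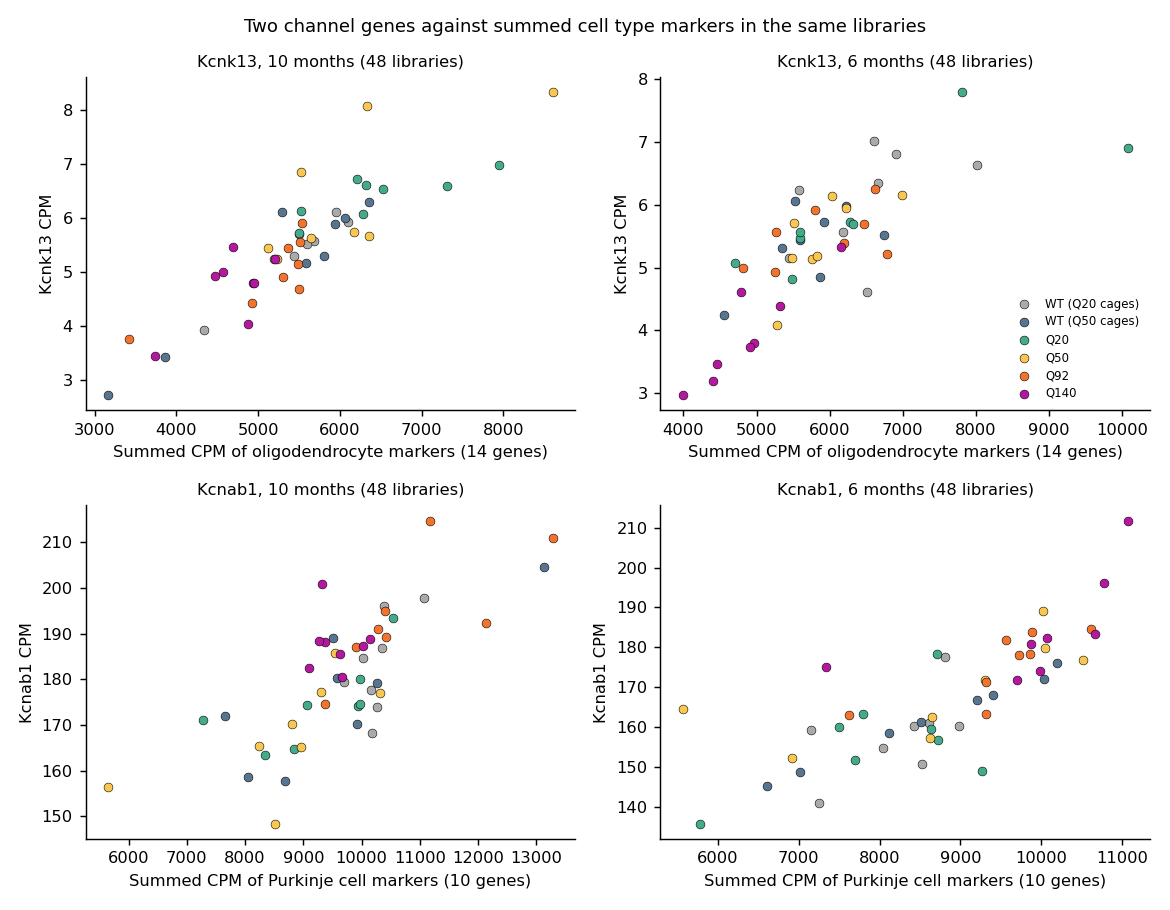
CPM of Kcnk13 against the summed CPM of 14 oligodendrocyte markers (top) and of Kcnab1 against that of 10 Purkinje cell markers (bottom), 1 point per library, coloured by genotype, at 10 months (left) and 6 months (right). In all panels the channel gene is higher where its marker sum is higher, and most Q140 libraries of 6 months lie at the low end for Kcnk13.

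Of the channels tied to other cell types, Kcnd2 followed the summed granule neuron markers, with r = 0.75 and rho = 0.70 at 6 months and r = 0.86 and rho = 0.52 at 10 months (permutation p = 1e-05, 1e-05, 1e-05 and 0.00019; adjusted 2e-05, 2e-05, 2e-05 and 0.000296). At 10 months r was 0.57 without the 2 farthest libraries. Kcnj10 followed the astrocyte and Bergmann glia sum at 6 months (r = 0.71, rho = 0.65, permutation p = 1e-05, adjusted 2e-05). At 10 months it did so with r = 0.35 and rho = 0.33 (permutation p = 0.0195 and 0.0223, adjusted 0.0248 and 0.0271), a relation that rests on 2 libraries, since r was 0.11 without them.

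Kcnh5 had r = 0.60 and rho = 0.55 with the markers of deep nuclei and brainstem neurons at 6 months (permutation p = 2e-05 and 7e-05, adjusted 3.7e-05 and 0.000122) and r = 0.62 and rho = 0.55 at 10 months (permutation p = 1e-05 and 0.0001, adjusted 2e-05 and 0.000165). Without the 2 farthest libraries r was 0.54 and 0.47. Kcnj8 had r = 0.12 and rho = 0.10 with mural cell markers at 6 months (permutation p = 0.418 and 0.509, adjusted 0.468 and 0.528). At 10 months it had r = 0.54 and rho = 0.30 (permutation p = 0.00065 and 0.0368, adjusted 0.000958 and 0.0430), and r was 0.22 without the 2 farthest libraries, so that this relation rests on them.

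Kcne2 and Kcnj13 varied most of the members with a mean of at least 1 CPM. Both are known in the epithelium of the choroid plexus, Kcnj13 as an inward rectifier of its apical membrane and Kcne2 as a beta subunit of its KCNQ-type channels. At 6 months Kcne2 had 0.0607, 0.234 and 2.51 CPM in Q140 (lowest, median, highest) and 0.142, 5.45 and 13.5 CPM in Q20. Kcnj13 had 0.748, 1.16 and 2.98 CPM in Q140 and 0.460, 5.53 and 16.6 CPM in Q20. The ranges overlapped, since Q20 spanned nearly the whole range of the libraries. All 10 choroid plexus markers were lower in Q140 at 6 months without a call, with a median log2 difference of -2.70, and their sum was 158 to 745 CPM in Q140 and 208 to 3050 CPM in Q20. None of the 10 was at 0 in every library.

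By a bound of 300 CPM in that sum, set after the values were seen, 42 libraries lay below and 54 above, with none between 281 and 472 CPM. At 6 months 2 Q20, 4 Q50, 6 Q92 and 7 Q140 libraries lay below it, and 2 of each wild-type group. At 10 months 4 Q20, 2 Q50, 4 Q92 and 3 Q140 libraries did, with 2 wild types housed with Q20 mice and 4 housed with Q50 mice. Kcne2 had 1.52 to 28.4 CPM in the libraries above the bound and 0.0582 to 0.639 CPM in those below, and Kcnj13 had 2.22 to 35.6 CPM above it and 0.452 to 4.81 CPM below. At 10 months the Q140 and Q20 difference of Kcne2 was 0.37 ± 0.95 (q = 0.909) and that of Kcnj13 0.24 ± 0.70 (q = 0.921). DESeq2 called both genes at 6 months, Kcne2 with -3.67 and Kcnj13 with -2.35. Over the ages Kcnj13 was called, higher at 10 months by 0.69 ± 0.29 (q = 0.0470), a call lost without the far libraries (0.72, q = 0.0923) and with the L label as a term (0.64, q = 0.0751). The part of choroid plexus tissue in these differences was not tested.

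**Figure D4:**
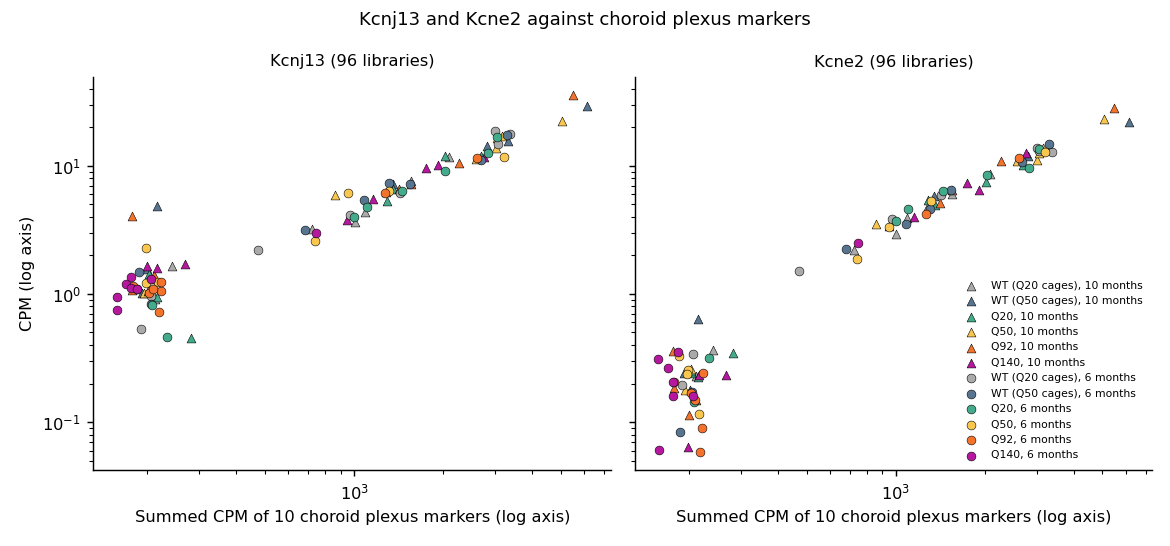
CPM of Kcnj13 (left) and Kcne2 (right) against the summed CPM of 10 choroid plexus markers, both on log axes, 1 point per library, coloured by genotype, with triangles at 10 months and circles at 6 months. The 54 libraries with a sum above 300 CPM form a rising line, and the 42 below it lie at the low end of the sum. The 2 sets lie apart in Kcne2, while in Kcnj13 they overlap (up to 4.81 CPM below the bound, from 2.22 CPM above it).

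Across the ages, 25 of 82 tested members were higher at 10 months and 5 lower, that is 36.6% called, where 41.3% of all 17384 genes were called (20.4% higher and 21% lower). Taken over both directions, a share near that of all genes is no result about the members. By direction, 30.5% of the tested members were higher and 6.10% lower, a split that was not tested. Those that rose were spread over the subfamilies. They were 4 of 7 tested Kv1 genes, 2 of 4 BK, 2 of 5 KCNQ and 5 of 13 inward rectifier genes. A further 3 of 8 EAG-type genes, 2 of 8 silent Kv genes and 2 of 10 auxiliary subunits rose. The Kv2, Kv3, Kv4, SK and two-pore-domain genes had 1 each. Kcns2, a silent Kv subunit, had 6.23, 9.77 and 14.99 CPM at 10 months (lowest, median and highest of 48 libraries) and 2.73, 8.14 and 11.6 CPM at 6 months. It was higher at 10 months in each of the 12 groups of genotype, cage and sex, by 0.30 ± 0.05 on the log2 scale (q = 1.06e-05). Kcnab1 was higher by 0.11 ± 0.02 (q = 4.42e-06), in 10 of 12 groups, with 148, 180.2 and 215 CPM at 10 months and 136, 166 and 212 CPM at 6 months.

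Kcng4, a silent subunit, rose by 0.14 ± 0.03 (q = 0.000132), in 12 of 12 groups. The inward rectifiers Kcnj2 and Kcnj16 rose by 0.28 ± 0.06 (q = 0.000273) and 0.16 ± 0.04 (q = 0.000310), Kcnma1 by 0.43 ± 0.11 (q = 0.000941) and Kcna2, a Kv1 subunit of axons, by 0.43 ± 0.13 (q = 0.00686). Kcnd3, Kcnh1 and Kcnk6 rose by 0.10 to 0.17. Without the far libraries the calls of Kcna2 (0.15, q = 0.0796), Kcnd3 (0.04, q = 0.252) and Kcnh1 (0.06, q = 0.149) were lost, and the difference of Kcnma1 was 0.20 (q = 0.0254) and that of Kcnj16 0.08 (q = 0.0370). The calls of Kcnd3 (q = 0.143) and Kcnh1 (q = 0.104) were also lost without replicate 4 of all groups, and that of Kcnk6 without replicate 2 (q = 0.0581). Kcna6 rose by 0.08 ± 0.02 on counts (q = 0.000646), but on the deposited FPKM it was lower at 10 months by a log2 difference of -0.05, so its direction depends on the unit; its call was lost without the far libraries (0.05, q = 0.0536).

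Kcnt1 fell by 0.15 ± 0.04 at 10 months (q = 0.00120). Its lowest, median and highest values were 169.5, 494 and 548 CPM at 10 months and 391, 525.7 and 686 CPM at 6 months. Kcnj9, a G-protein-gated inward rectifier of granule neurons, fell by 0.08 ± 0.02 (q = 0.00175), in 12 of 12 groups. Kcne1l (0.11), Kcnk1 (0.05) and Kcnip4 (0.05) fell by small amounts. The calls of Kcne1l and Kcnk1 were lost without replicate 3 or 4 (q between 0.128 and 0.312), that of Kcnip4 without any 1 of the 4 replicate numbers (q between 0.0765 and 0.139), and all 3 without the far libraries (q between 0.0893 and 0.712). The difference of Kcnt1 was then -0.09 (q = 0.00444). Without replicate 4 of all groups 13 members were called, a count given here without the share of all genes. Without the far libraries 11 of 83 members were called, all among the 30, where 18.7% of all genes were called. They were 9 higher and 2 lower, among them Kcnab1, Kcng4, Kcnj16, Kcnj2, Kcnj4, Kcnk6, Kcnma1 and Kcns2 higher, Kcnj9 and Kcnt1 lower. Markers also moved with age: 9 of 10 microglial, 5 of 6 mural and 7 of 10 choroid plexus markers rose, and 4 of 8 granule neuron and 6 of 14 oligodendrocyte markers fell; their part in the members' differences was not tested.

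Between the sexes, 5 of 82 tested members were higher in males and 11 lower, that is 19.5% called, where 5.45% of all genes were called (2.12% higher, 3.33% lower). At an unadjusted p under 0.05 the shares were 40.2% of members and 19.6% of all genes. The median absolute log2 difference was 0.08 over the members and 0.04 over all genes, so these differences were small. Of the 11 lower members, 3 were auxiliary subunits, 3 silent Kv subunits and 1 each a Kv1, KCNQ, SK, inward rectifier and two-pore-domain gene.

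Kcnip4 was lowest in p. It had 99.6, 116 and 137 CPM in males (lowest, median and highest of 48 libraries) and 104, 123 and 148 CPM in females, a difference of -0.11 ± 0.02 (q = 0.000168). It was lower in males in 12 of the 12 groups of genotype, cage and age. Kcnn2 had 26.0, 32.1 and 39.5 CPM in males and 28.8, 33.9 and 39.0 CPM in females, a difference of -0.09 ± 0.02 (q = 0.00265), lower in 11 of 12 groups. Though these ranges overlapped almost wholly, Kcnip4 and Kcnn2 were the members called under every alternative that was run.

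Kcnd2, the Kv4 subunit that Kcnip4 binds, was higher in males, with 221, 325 and 375 CPM against 163, 297 and 338 CPM in females, a difference of 0.13 ± 0.03 (q = 0.00699) in 11 of 12 groups. Kcnk1 was higher in males in 12 of 12 groups by 0.08 ± 0.02 (q = 0.00753). Kcnh1 (0.15 ± 0.05), Kcnc1 (0.13 ± 0.04) and Kcnj9 (0.07 ± 0.02) were also higher, with q between 0.0339 and 0.0421. Of the lower members, Kcng2, Kcns3 and Kcnv2, silent Kv subunits, had differences of -0.36 ± 0.11, -0.30 ± 0.09 and -0.27 ± 0.07, at medians of 0.434, 1.56 and 0.880 CPM in males and 0.475, 1.77 and 1.04 CPM in females. Kcne4, an auxiliary subunit, had -0.30 ± 0.08 (q = 0.0115) and Kcnq3, a KCNQ subunit, -0.17 ± 0.05 (q = 0.0107). Kcnj2, Kcna4, Kcnk6 and Kcnab1 had -0.22, -0.24, -0.17 and -0.06, with q between 0.0247 and 0.0461. Each call in this paragraph was lost without at least 1 of the 4 replicate numbers. Kcnh1 and Kcna4 lost theirs without any 1 of the 4. Kcnc1, Kcnq3, Kcne4, Kcns3, Kcng2 and Kcnk6 lost theirs in 3 of these 4 fits, and Kcnj9 in 2 (q up to 0.548). Kcng2, Kcna4, Kcnk6 and Kcnab1 also lost their calls on FPKM.

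The count of members called between the sexes depended on which libraries entered. It was 10, 5, 4 and 10 without replicate 1, 2, 3 or 4 of all groups. The share of all genes called in those fits is not given here, so these counts alone are no result about the members. Without the far libraries 20 of 83 members were called (6 higher and 14 lower in males), where 11.8% of all genes were called. Of these members, 14 were among the 16. The calls of Kcns3 (-0.24, q = 0.0572) and Kcnk6 (-0.13, q = 0.1205) were lost there. No oligodendrocyte, microglial, Purkinje, granule neuron or choroid plexus marker was called between the sexes, while 1 of 8 astrocyte markers was higher in males and 1 lower, and 2 of 6 endothelial markers were higher. Without calls, all 8 granule neuron markers had positive differences (median log2 difference 0.05), and the granule neuron sum is the one that Kcnd2, higher in males, followed. In males 12 of 14 oligodendrocyte markers (median -0.07), 9 of 10 microglial markers (median -0.02) and 8 of 10 choroid plexus markers (median -0.13) had negative differences. The part of these cell types in the differences of the members was not tested.

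**Figure D5:**
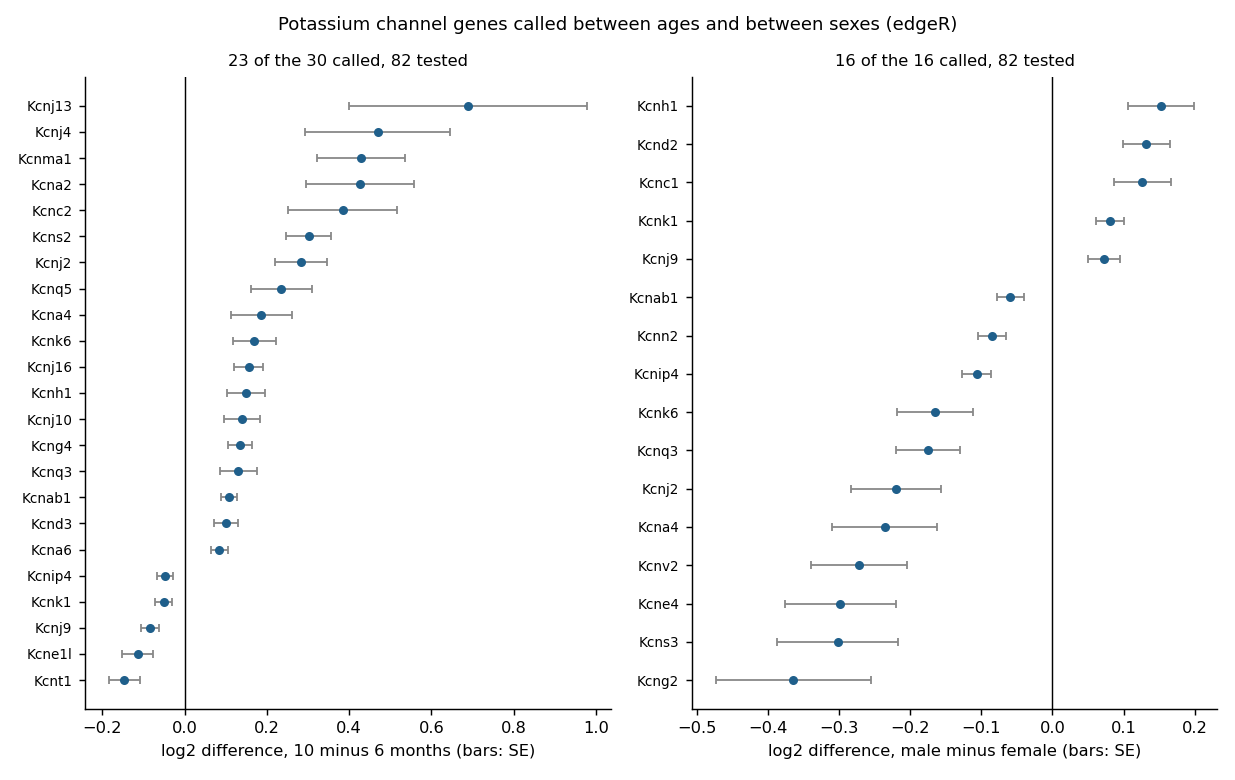
Log2 differences with SE bars of members named in the text that were called, 10 minus 6 months (left, 23 of the 30 called) and male minus female (right, all 16 called). Most of those drawn are higher at 10 months, and most of those called between the sexes are lower in males.

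Of 37 genes that encode partners of potassium channels or related pacemaker and leak channels, 36 were tested. Dpp10, a dipeptidyl-peptidase-like subunit of Kv4 channels, was higher in Q140 than in Q20 at both ages, with 211 ± 19.6 CPM in Q140 and 159.8 ± 20.0 CPM in Q20 at 6 months (SD, n = 8 each; log2 difference 0.40 ± 0.08, q = 0.0116) and 212 ± 7.10 CPM in Q140 and 183 ± 14.9 CPM in Q20 at 10 months (0.21 ± 0.06, q = 0.0264). Kctd8, a subunit of GABA-B receptors that gate inward rectifiers, was called at 6 months (0.22 ± 0.05, q = 0.0467). Cntnap2, a member of the Kv1 complex, and Nalcn, a sodium leak channel, were called at 10 months (0.27 ± 0.06, q = 0.00902, and 0.18 ± 0.04, q = 0.0152). So 2 and 3 of 36 partners rose and none fell at 6 and 10 months, where 0.0643% and 1.06% of all genes were higher. In the trend Dpp10 was called at both ages and Nalcn at 10 months. Between the ages 17 of 36 rose and 5 fell, where 20.4% of all genes were higher and 21% lower. Among those that rose was Abcc9, the sulfonylurea receptor of mural cells, by 0.26 ± 0.04 (q = 8.19e-07). Between the sexes edgeR called none. The partner calls were not followed under the alternatives, without single libraries or without the far libraries. Whether they hold there is therefore not known, and their differences between Q140 and wild types are not given here.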

How the data were processed

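Messenger RNA libraries of mouse cerebellum were sequenced in 96 samples. Per the labels' protocols, flash-frozen tissue gave total RNA (Qiagen miRNeasy kit) and libraries followed standard Illumina procedures. Per the submitters' processing notes CASAVA 1.8.2 was used; the sources used here do not name the aligner, quantifier, genome build, annotation or use of strand. The authors deposited expected counts (estimated counts that need not be whole; 81.6% were whole at tolerance 0) and, in a second table, values of the same 39179 genes as FPKM. The FPKM were deposited by the authors under that name; how they were computed from the reads is not stated. Coordinates are those of GENCODE M21 on GRCm38, matched by Ensembl identifier; 37607 identifiers had a symbol. Totals ran between 29957797 and 39477325 counts per library (median 34251076), so counting error is small beside the spread between libraries for genes above a few CPM and large for the lowest genes.

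Expected counts were rounded and tested with edgeR 4.0.16 in R 4.3.3 (quasi-likelihood F-test, two-sided, TMM factors, filterByExpr at its defaults of 10 counts and 15 in total). Fits within an age held 48 libraries with terms for the 6 groups and sex, the trend was fitted over Q20, Q50, Q92 and Q140 (32 libraries) as a slope per 100 CAG, and fits across ages held 96 libraries with 12 groups and sex. The Benjamini-Hochberg adjusted p over all tested genes is written q, and a gene was called at q under 0.05. Log2 CPM used a prior count of 2; the standard error (SE) is the absolute log2 difference over the square root of F. The test was checked on simulated counts with known changes.

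Alternatives were another scaling (RLE), DESeq2 1.42.0, no count filter, limma 3.58.1 on log2(FPKM + 0.1) or log2(FPKM + 1) with a mean FPKM of at least 0.1 and with no such filter, the replicate number as a block, the L label in the library names as a term, leaving out libraries more than 3 median absolute deviations out on the first principal component, and leaving out each library in turn (each replicate number in the fits across ages). Correlations over libraries used 100000 permutations. Pearson's r was taken between log2 CPM of the channel gene and log2 of the summed marker CPM. A small offset, not the prior count above, was added to the CPM of the channel gene. Spearman's rho used the ranks of the same values. Each channel gene was paired only with the marker sums named for it in the text.

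The potassium channel genes, the partner list and the marker lists were chosen with earlier results of these data known. Members were named where called in a comparison (at most 12 with the smallest p in each direction), among the 8 smallest p of Q140 against Q20 at each age, among the 8 highest in FPKM, among the 5 largest and 5 smallest in coefficient of variation within groups at a mean CPM of at least 1, or as the channel of a cell type (Kcnj13, Kcnj10, Kcnk13, Kcnj8). Kcnj4, Kcnh3, Kcnk2, Kcnk5 and Kcnj3 fall outside this rule and are named after their values were seen. Results of some members are not reported here. No 2 libraries held identical values.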

Additional observations from a re-analysis of the deposited data

Results flagged for a closer look

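In 11 of 56 groups of 8 libraries, over 14 of the genes named for Q140 against Q20 and for cell types, the highest or lowest library stood apart from the nearest other by more than Dixon's criterion allows. That is 19.6% of the groups. Chance gives about 1 in 20 for normally distributed values within a group, which was not tested here. These genes also share the same libraries, so the count can vary more than it would over independent groups. The excess is therefore not read as more than chance.

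At 6 months 4 of the 11 fell on 1 library, Q140 female replicate 4, which is also far out on the first principal component. It was lowest of its group for Kcnh1 (69.0 CPM, next 91.0), Kcnma1 (27.9 CPM, next 106), Kcna3 (0.662 CPM, next 2.86) and Kcnd3 (130.05 CPM, next 167). Q140 male replicate 3 was highest at that age for Kcne2 (2.51 CPM, next 0.353) and Kcnj13 (2.98 CPM, next 1.35), and it is the 1 Q140 library of 6 months with over 300 CPM of summed choroid plexus markers.

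At 10 months the Q140 libraries that stood highest were female replicate 3 for Kcnab1 (201 CPM, next 189), male replicate 4 for Kcnj8 (4.74 CPM, next 3.55) and male replicate 1 for Kcnj10 (306 CPM, next 273). Q20 female replicate 4 was highest for Kcnh5 (1.76 CPM, next 0.700) and Kcnj10 (405 CPM, next 307). Causes were not tested.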

How the results depend on the processing

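Of 1100 values of 56 named gene results under the alternatives, 941 kept direction and side of the threshold, 153 fell short of it, 3 passed it and 3 reversed. The reversals were Kcna6 by age on FPKM, at -0.0543 and -0.0523 with the pseudocounts 0.1 and 1 and -0.0543 with no filter. The causes of the changes below were not tested. Members called in Q140 against Q20 at 6 months (2) numbered 4 with DESeq2 (173 of all genes, against 28), and 1 with each limma setting on FPKM and without the far libraries; against all wild types (2), 4 with DESeq2 and 1 with the L label. At 10 months Q140 against Q20 (3) gave 1 with the L label, Q92 against Q20 (0) gave 2 with DESeq2, and wild types housed with Q50 mice against those housed with Q20 mice (0) gave 3 without the far library (Kcnk2, Kcnk5 and Kcnj3). The trend at 6 months (2) gave 5 with DESeq2 (432 of all genes, against 68), 1 and 1 with limma at either pseudocount, and 0 with no FPKM filter, with the L label and without the far libraries. At 10 months (3) it gave 1 with the L label and 6 without the far library. The count by age (30) was 11 without the far libraries, and that by sex (16) was 9 with limma and no filter. A count printed in this paragraph without the number of all genes called in the same fit is no result about the members.

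Leaving out 1 library gave 1 to 2 members in Q140 against Q20 and against wild types at 6 months, 1 to 3 and 0 to 1 at 10 months, and 0 to 19 and 2 to 6 in the trends. Leaving out 1 replicate number gave 13 to 33 by age and 4 to 10 by sex. These counts are given without the shares of all genes, so they are no result about the members. With the replicate block the counts were 2 and 3 for Q140 against Q20 at 6 and 10 months and 2 and 3 for the trends. They were 29 by age and 17 by sex, and no count moved by over 1.5 times. The block counts too are given without the shares of all genes. Deviations of same-numbered libraries of a sex and age had mean correlations of 0.0150 to 0.0344. Those of libraries with different numbers had means of -0.0103 to -0.00127. These means are small, but single pairs ran between -0.469 and 0.713 with the same number and between -0.516 and 0.638 with different numbers. Some libraries thus deviated together, and whether the numbers pair some libraries was not tested. Depth limits the members under about 1 CPM most.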
